A study of Arabidopsis thaliana with 5 samples.

Results

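The genes described are 10 Arabidopsis genes of xylem differentiation and secondary wall formation, chosen by gene identifier from 33557 features: the NAC transcription factor genes VND6 and VND7, the MYB transcription factor genes MYB46 and MYB83, the cellulose synthase genes CESA4, CESA7 and CESA8, the laccase gene LAC17 and the cysteine protease genes XCP1 and XCP2. All 10 were found, and all 10 passed the filter on low values (1 FPKM or more in 2 or more of the 5 libraries), MYB83 through Col-0 replicate 1 and both GFP-GrxS5 libraries. The RNA came from roots of Arabidopsis thaliana, of the wild type Col-0 (3 libraries) and of the genotype GFP-GrxS5 (2 libraries). The name GFP-GrxS5 joins green fluorescent protein to GrxS5, a small plant glutaredoxin. The labels give neither the promoter of the construct nor the number of lines, plant age or growth conditions. The series asked which genes GrxS5 represses, and the values are FPKM, fragment counts scaled to gene length and to the library's total.

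Water-conducting xylem vessels form from cells that lay down a thick secondary wall of cellulose, xylan and lignin and then die and empty themselves. VND6 and VND7 are NAC factors that can switch on the whole vessel program, and MYB46 and MYB83 act below them as a redundant pair that turns on the enzymes of the wall. CESA4, CESA7 and CESA8 are the subunits of the cellulose synthase complex of the secondary wall, LAC17 oxidizes lignin precursors in the wall, and XCP1 and XCP2 are vacuolar proteases that digest the contents of the dying vessel.

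No member passed the test for a difference between the genotypes. By limma at a Benjamini-Hochberg adjusted p under 0.05, 0 of the 10 were higher with GFP-GrxS5 and 0 were lower. Over all 19693 genes tested the same rule called 7.08%, 4.73% higher (932 genes) and 2.35% lower (462 genes), so a count of 0 among 10 is near the background. An unadjusted limma p under 0.05 was found for 1 member (XCP2), against 4795 of the 19693 tested genes. Under quantile normalization the calls over all genes were 789 higher and 648 lower, which took the higher share of calls from 66.9% to 54.9%. Both GFP-GrxS5 libraries lay above all Col-0 libraries in 3 members (MYB83, XCP1 and XCP2) and below them in 0, where 22.6% and 20.3% of all tested genes did so. The median log2 change over the 10 members was 0.11, beside 0.01 over all tested genes. In whole roots, fewer xylem cells and less RNA per cell cannot be told apart, and the same holds for more of either.

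The depth of the libraries, read from the steps of low FPKM values, was near 3260000 to 4340000 fragments. GrxS5 itself stood at 3.06 to 4.14 FPKM in wild-type roots and at 103 and 124 in GFP-GrxS5. Markers of root hairs and endodermis were present in all 5 libraries, such as EXPA7 at 42.7 to 58.6 FPKM and CASP1 at 122 to 166. Of 9 markers of epidermis, cortex and endodermis 0 passed by limma. Of the 9, 4 had an unadjusted limma p under 0.05, against 4795 of the 19693 tested genes. The cortex marker CO2, with the smallest p of these, had 4.29 to 5.09 FPKM in wild-type roots and 7.25 and 9.80 in GFP-GrxS5 (adjusted p = 0.051, limma with Benjamini-Hochberg). Both GFP-GrxS5 libraries lay above all Col-0 libraries in 3 of the 9 markers and below them in 2, against 22.6% and 20.3% of all tested genes. The 2 below were GL2 and WER, with log2 changes of -0.35 and -0.34 (adjusted p = 0.159 and 0.176, limma with Benjamini-Hochberg). Markers of shoot photosynthesis were present as well and moved with the genotype. Their summed level over 17 genes was 724 to 859 FPKM in wild-type roots and 1650 and 1672 in GFP-GrxS5. Of the 15 tested 13 were called higher and 0 lower, against 4.73% and 2.35% of all tested genes. RBCS2B was listed at 0 in Col-0 replicates 1 and 2, and no other of the 17 was at 0 in any library. RBCS1A, RBCS3B, LHCB1.3 and PSBO1 had the smallest p, with log2 changes of 1.22, 1.79, 1.43 and 0.89 (limma, Benjamini-Hochberg adjusted p from 6.15e-04 to 0.00275). RBCS and LHCB genes have near-identical copies among which fragments can be split, so their single values are uncertain. Their part in the results below was not tested. Kits and sequencers of a pair of types are named in the labels but are not tied to libraries, so genotype and a technical batch cannot be told apart.

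**Figure D1:**
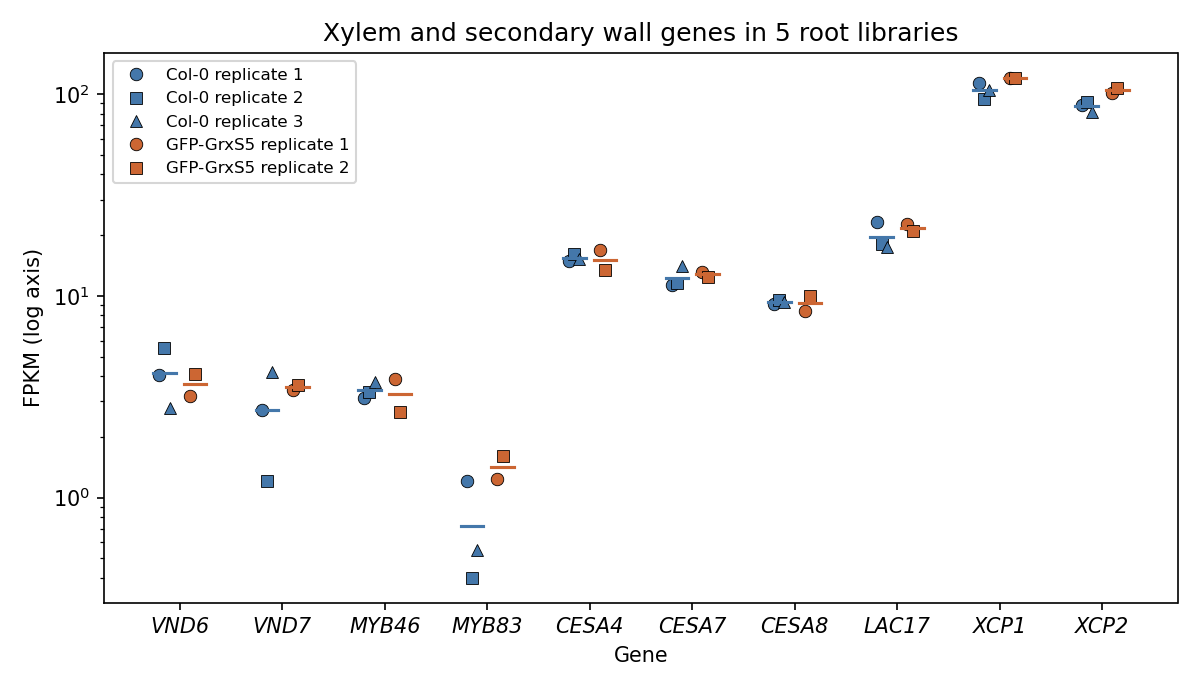
FPKM (log axis) of the 10 genes in each library, with Col-0 in blue and GFP-GrxS5 in orange, a marker shape per replicate and a short line at each group mean. XCP1 and XCP2 sit between 81.6 and 120.4 FPKM in every library and the 4 transcription factor genes between 0.401 and 5.54.

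The members spanned 145-fold in level in wild-type roots and 84.7-fold in GFP-GrxS5, from MYB83 at the bottom to XCP1 at the top. In Col-0 the order of mean FPKM was XCP1, XCP2, LAC17, CESA4, CESA7, CESA8, VND6, MYB46, VND7 and MYB83. The ranges of VND6 and MYB46 overlapped, as did those of MYB46 and VND7, while the other neighbouring pairs did not overlap in these 3 libraries. VND7 and MYB83 were barely apart, with a lowest VND7 value of 1.212 FPKM and a highest MYB83 value of 1.210. That gap is smaller than what 1 fragment is worth (0.153 FPKM on 1.5 kb in Col-0 replicate 1), so these 2 genes are not resolved. The order of the top 7 genes was the same in GFP-GrxS5, and VND7 stood above MYB46 there with overlapping ranges. XCP1 lay above 92.0% of tested genes in Col-0, LAC17 above 57.8%, CESA4 above 50.1% and MYB83 above 0.853%.

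The switches of the program were the least abundant members and the least precisely measured. VND6 (AT5G62380, called NAC101 in the files; chromosome 5, 25050684 to 25051858 on TAIR10) had 4.06, 5.54 and 2.78 FPKM in Col-0 replicates 1 to 3 and 3.18 and 4.12 in GFP-GrxS5 replicates 1 and 2. Both GFP-GrxS5 values lay inside the Col-0 range. Its log2 change was -0.11 (SE 0.26; 95% interval -0.73 to 0.50; limma, Benjamini-Hochberg adjusted p = 0.83). VND7 (AT1G71930, NAC030 in the files; chromosome 1, 27076140 to 27077957) had 2.72, 1.21 and 4.19 FPKM in wild-type roots and 3.43 and 3.60 in GFP-GrxS5. The Col-0 libraries alone covered a wider range than the genotypes did between them. The change of VND7 was 0.37 (SE 0.35; 95% interval -0.45 to 1.19; limma, Benjamini-Hochberg adjusted p = 0.567).

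MYB46 (AT5G12870; chromosome 5, 4062724 to 4064992) had 3.11, 3.35 and 3.75 FPKM in wild-type roots and 3.87 and 2.65 in GFP-GrxS5. The 2 GFP-GrxS5 libraries enclosed all 3 Col-0 libraries, and the log2 change was -0.06 (SE 0.21; 95% interval -0.55 to 0.43; limma, Benjamini-Hochberg adjusted p = 0.891). Its partner MYB83 (AT3G08500; chromosome 3, 2576794 to 2578246) was the lowest member, at 1.21, 0.401 and 0.548 FPKM in wild-type roots and 1.24 and 1.60 in GFP-GrxS5. Both GFP-GrxS5 libraries were above all Col-0 libraries, by a small margin over Col-0 replicate 1. The log2 change was 0.52 (SE 0.31; 95% interval -0.20 to 1.23; limma, Benjamini-Hochberg adjusted p = 0.341), on values that correspond to an estimated 2.63 to 9.19 fragments a library. MYB46 stood above MYB83 in every library, 2.57 to 8.35 times in wild-type roots and 3.12 and 1.65 times in GFP-GrxS5. Across VND6, VND7, MYB46 and MYB83 the estimated fragments ran from 2.63 to 29 a library, which limits what differences these 4 genes can show.

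The other NAC and MYB regulators of xylem and fibre walls were mostly as low. The remaining VND genes, VND1 to VND5, whose proteins are the closest relatives of VND6 and VND7, were all detected. VND3 was the highest of them, at 3.93 to 5.76 FPKM in wild-type roots and 6.78 and 5.49 in GFP-GrxS5. VND1 had 1.35 to 2.35 FPKM in wild-type roots and 1.15 and 2.09 in GFP-GrxS5, VND4 2.43 to 3.65 and then 3.72 and 4.01, and VND5 0.715 to 1.44 and then 1.47 and 1.09. VND2 had 0.675 to 1.76 FPKM in wild-type roots and 1.97 and 2.12 in GFP-GrxS5. No gene of VND1 to VND5 passed (adjusted p of 0.268 to 0.866, limma with Benjamini-Hochberg). The summed FPKM of all 7 VND genes was 19.4, 20 and 17.4 in wild-type roots and 21.7 and 22.5 in GFP-GrxS5. NST1, NST2 and SND1, the NAC genes that drive the walls of fibres and of the anther, were listed at 0 in all 5 libraries.

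Of 26 such regulators outside the 10 members, 21 were tested. Both GFP-GrxS5 libraries lay above all Col-0 libraries in 7 of the 21 and below them in 0, against 22.6% and 20.3% of all tested genes. By limma 1 passed, where 4.73% of all tested genes were called higher. It was KNAT7, a homeodomain gene that acts on secondary walls. KNAT7 rose from 22.4, 21.6 and 22.3 FPKM in wild-type roots to 29.3 and 29 in GFP-GrxS5, a log2 change of 0.38 (SE 0.09; limma, Benjamini-Hochberg adjusted p = 0.0468). Its call was lost without any 1 of the 5 libraries (adjusted p of 0.105 to 0.151, limma with Benjamini-Hochberg) and under median-of-ratios scaling and quantile normalization (0.0564 and 0.0656). The list had a median log2 change of 0.10, and the shoot photosynthesis markers were higher in the same GFP-GrxS5 libraries, with a median of 0.70.

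**Figure D2:**
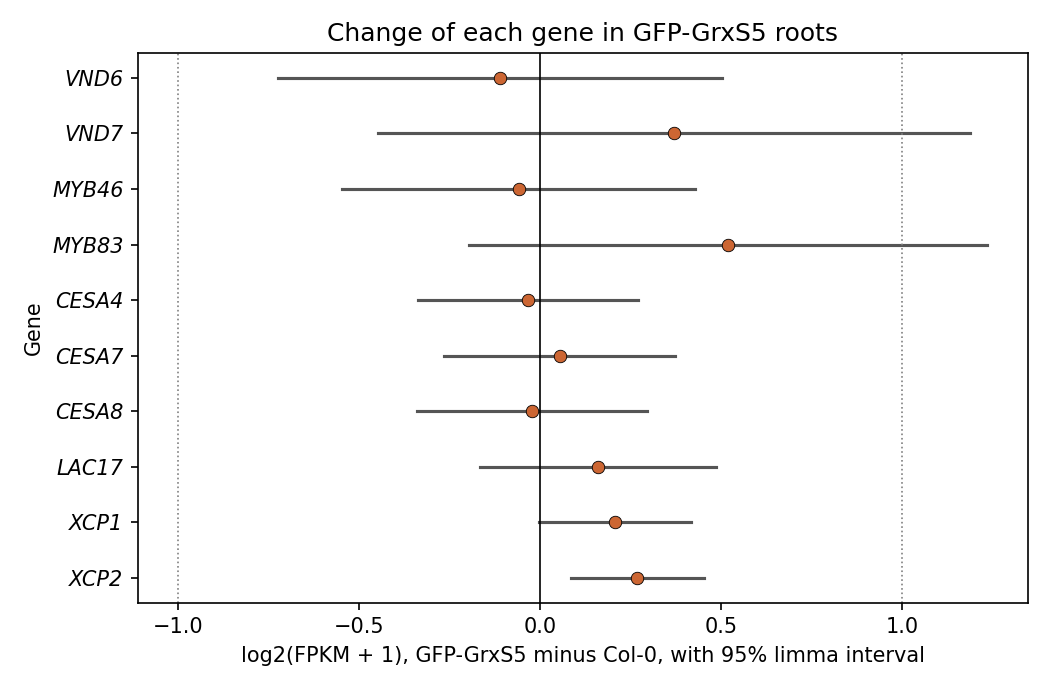
Log2 change of each gene, GFP-GrxS5 minus Col-0 on log2(FPKM + 1), with its 95% limma interval (n = 3 and n = 2), and dotted lines at a change of 1 in either direction. The interval of XCP2 alone leaves out 0, and those of VND7 and MYB83 reach past 1.

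None of the 3 subunit genes of the secondary wall cellulose synthase passed, and their mean FPKM differed little between the genotypes. CESA4 (AT5G44030, chromosome 5) had 14.9, 16.1 and 15.3 FPKM in wild-type roots and 16.9 and 13.4 in GFP-GrxS5. The GFP-GrxS5 libraries lay one above and one below all Col-0 libraries, and the log2 change was -0.03 (SE 0.13; 95% interval -0.34 to 0.27; limma, Benjamini-Hochberg adjusted p = 0.899). CESA7 (AT5G17420, chromosome 5) had 11.3, 11.6 and 14.1 FPKM in wild-type roots and 13.2 and 12.3 in GFP-GrxS5. Its GFP-GrxS5 values lay inside the Col-0 range, with a change of 0.05 (SE 0.14; 95% interval -0.27 to 0.37; adjusted p = 0.845, limma with Benjamini-Hochberg). CESA8 (AT4G18780, chromosome 4) had 9.07, 9.60 and 9.37 FPKM in wild-type roots and 8.41 and 10 in GFP-GrxS5. Again the GFP-GrxS5 libraries enclosed the Col-0 libraries, with a change of -0.02 (SE 0.14; 95% interval -0.34 to 0.29; adjusted p = 0.938, limma with Benjamini-Hochberg). On the log2(FPKM + 1) scale these intervals allow folds of 0.79 to 1.29 for the 3 genes, so smaller changes than these are not shown to be absent.

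The proportions of the 3 genes, whose proteins are all needed in one complex, differed between the genotypes by less than the SD of the Col-0 libraries. CESA4 made up 41.7% ± 1.93 (SD, n = 3) of the summed FPKM of the trio in wild-type roots and 40.7% ± 4.50 (SD, n = 2) in GFP-GrxS5. The share of CESA7 was 33.1% ± 2.79 and 34.4% ± 0.161, and that of CESA8 25.2% ± 0.89 and 24.9% ± 4.33 (SD, n = 3 and n = 2). The summed FPKM of the trio was 37.1 ± 1.78 in wild-type roots and 37.1 ± 1.93 in GFP-GrxS5 (SD, n = 3 and n = 2), with values of 35.2 to 38.8 over all 5 libraries.

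CESA1, CESA3 and CESA6 form the complex that makes the primary wall of growing cells. Their summed FPKM was 495, 519 and 510 in wild-type roots and 487 and 426 in GFP-GrxS5, so both GFP-GrxS5 libraries were lower. The secondary wall trio came to 7.11%, 7.19% and 7.60% of that sum in wild-type roots and to 7.90% and 8.38% in GFP-GrxS5. Those shares did not overlap between the genotypes, while the mean sums of the secondary wall trio differed by less than the SD of either group. Of all tested genes 42.8% had FPKM that did not overlap between the genotypes. CESA1 had a log2 change of -0.18, CESA3 of -0.10 and CESA6 of -0.20, and none passed (limma, Benjamini-Hochberg adjusted p = 0.228, 0.471 and 0.163). Without GFP-GrxS5 replicate 2 these changes were -0.08, -0.0024 and -0.13, and without GFP-GrxS5 replicate 1 they were -0.29, -0.21 and -0.27. Of the 7 cellulose synthase genes outside the trio 5 were tested and 0 passed by limma (2 had an unadjusted p under 0.05, against 4795 of the 19693 tested genes). CESA5, the one with the smallest p, had 25.6 to 29.4 FPKM in wild-type roots and 22.5 and 22.4 in GFP-GrxS5 (limma, Benjamini-Hochberg adjusted p = 0.121). All 5 had a log2 change below 0, with a median of -0.20.

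**Figure D3:**
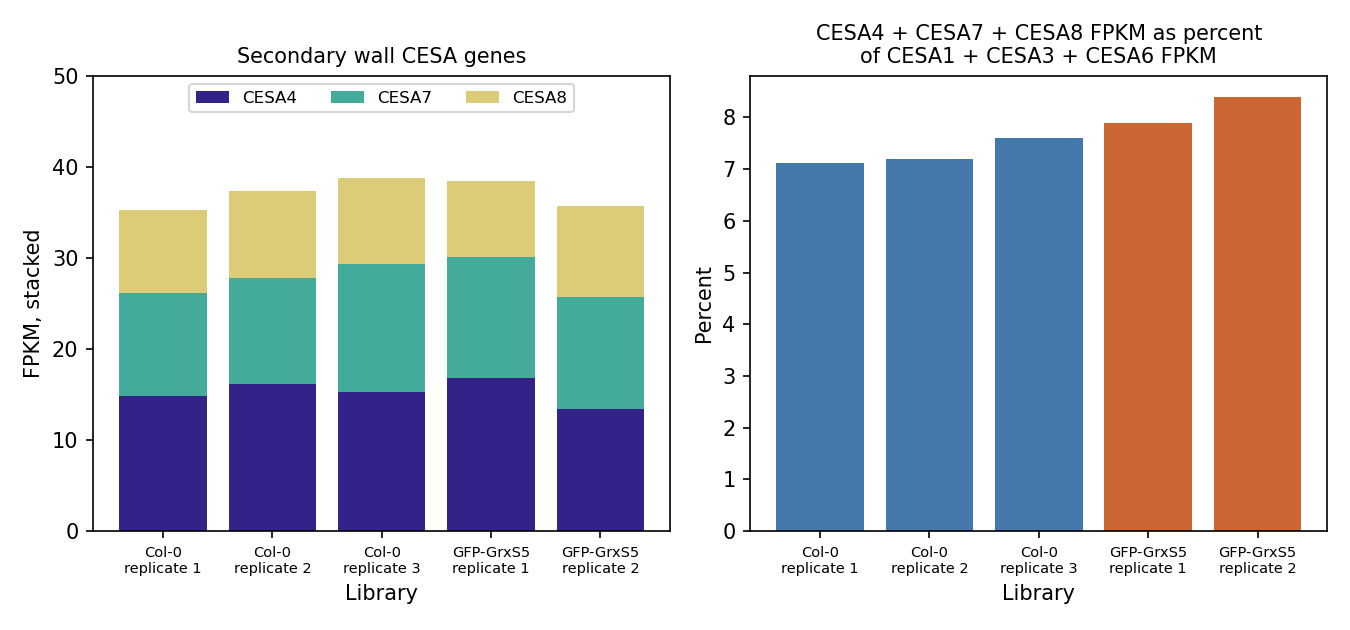
Left, FPKM of CESA4, CESA7 and CESA8 stacked for each library, where the total stays between 35.2 and 38.8. Right, that total as a percent of the summed FPKM of CESA1, CESA3 and CESA6, which runs from 7.11% to 7.60% in the 3 Col-0 libraries and is 7.90% and 8.38% in the 2 GFP-GrxS5 libraries.

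Genes that build xylan and structure the secondary wall around the cellulose were tested as a list of 23. Of these 1 rose, 0 fell and 22 did not pass, against 4.73% higher and 2.35% lower over all tested genes. In 10 of the 23 both GFP-GrxS5 libraries were above all Col-0 libraries, against 22.6% of all tested genes. The median log2 change was 0.21. FLA11, a fasciclin-like arabinogalactan protein of secondary walls, rose from 31.7, 29.5 and 24.5 FPKM in wild-type roots to 42.5 and 42.1 in GFP-GrxS5, a log2 change of 0.56 (SE 0.12; limma, Benjamini-Hochberg adjusted p = 0.0366). That call was lost when Col-0 replicate 2, Col-0 replicate 3 or either GFP-GrxS5 library was left out (adjusted p of 0.0633 to 0.132, limma with Benjamini-Hochberg). The sums over the list were 554 to 574 FPKM in wild-type roots and 652 and 650 in GFP-GrxS5, beside the rise of the shoot photosynthesis sum from 724 to 859 FPKM to 1650 and 1672.

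LAC17 (AT5G60020, chromosome 5), the laccase of the 10, had 23.2, 18.1 and 17.4 FPKM in wild-type roots and 22.6 and 21 in GFP-GrxS5. The groups overlapped because of Col-0 replicate 1, the highest library of the 5. Its log2 change was 0.16 (SE 0.14; 95% interval -0.17 to 0.49; limma, Benjamini-Hochberg adjusted p = 0.532). LAC4 and LAC11 act with LAC17 in lignin polymerization. LAC4 had 26 to 29.7 FPKM in wild-type roots and 33 and 35.9 in GFP-GrxS5, a log2 change of 0.31 (adjusted p = 0.108, limma with Benjamini-Hochberg). LAC11 had 27.1 to 33.5 FPKM in wild-type roots and 26.8 and 28.7 in GFP-GrxS5, a log2 change of -0.07 (limma, Benjamini-Hochberg adjusted p = 0.753). LAC17 made up 25.5% ± 1.27 of the summed FPKM of these 3 laccases in wild-type roots and 26.0% ± 2.05 in GFP-GrxS5 (SD, n = 3 and n = 2).

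Of 9 other laccases both GFP-GrxS5 libraries were above all Col-0 libraries in 4 and below them in 1, against 22.6% and 20.3% of all tested genes. By limma 1 rose, 0 fell and 8 did not pass, with a median log2 change of 0.15. Over all tested genes 4.73% were called higher and 2.35% lower. The one that rose was LAC7, from 26.1, 33.5 and 33.6 FPKM in wild-type roots to 64.2 and 54.4 in GFP-GrxS5, a change of 0.91 (SE 0.14; limma, Benjamini-Hochberg adjusted p = 0.0102). Without GFP-GrxS5 replicate 1 the call was lost (adjusted p = 0.0669, limma with Benjamini-Hochberg). Of 15 enzymes that make the lignin precursors both GFP-GrxS5 libraries were below all Col-0 libraries in 7 and above them in 2. By limma 2 fell, 0 rose and 13 did not pass, with a median of -0.16, where 2.35% of all tested genes were called lower. PAL1 and PAL2, which encode the entry enzyme phenylalanine ammonia-lyase, were the ones that fell. PAL1 went from 336, 350 and 341 FPKM to 229 and 182, a log2 change of -0.74 (SE 0.10; limma, Benjamini-Hochberg adjusted p = 0.00738). PAL2 went from 149, 151 and 152 FPKM to 112 and 95.8, a log2 change of -0.53 (SE 0.08; limma, Benjamini-Hochberg adjusted p = 0.0116). Without a filter on low values the calls of PAL1 and PAL2 were lost (adjusted p = 0.110 and 0.0999), and that of PAL2 also without a variance trend (adjusted p = 0.0674, limma with Benjamini-Hochberg). These enzymes also feed flavonoids and other phenylpropanoids, and their FPKM does not separate xylem from other root cells.

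XCP1 and XCP2 were the most abundant members and the ones nearest to a call. XCP1 (AT4G35350; chromosome 4, 16810482 to 16812009) had 114, 94.8 and 105 FPKM in wild-type roots and 120.4 in each of the GFP-GrxS5 libraries. Both GFP-GrxS5 libraries were above all Col-0 libraries, a log2 change of 0.21 (SE 0.09; 95% interval -0.0035 to 0.42; limma, Benjamini-Hochberg adjusted p = 0.212). XCP2 (AT1G20850; chromosome 1, 7252174 to 7253731) had 88.3, 91.4 and 81.6 FPKM in wild-type roots and 102 and 108 in GFP-GrxS5. Here too the groups did not overlap, and the log2 change was 0.27 (SE 0.08; 95% interval 0.08 to 0.45; limma, Benjamini-Hochberg adjusted p = 0.0898). The ratio of XCP1 to XCP2 was 1.29, 1.04 and 1.28 in wild-type roots and 1.18 and 1.12 in GFP-GrxS5, so XCP1 exceeded XCP2 in every library.

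Of 6 other genes listed for xylem cell death and its timing, 2 rose, 0 fell and 4 did not pass, with a median log2 change of 0.32. Over all tested genes 4.73% were called higher and 2.35% lower. In 5 of the 6 both GFP-GrxS5 libraries were above all Col-0 libraries, against 22.6% of all tested genes. MC9, a metacaspase that takes part in clearing the dead vessel, rose from 40.2, 36.8 and 41.1 FPKM to 52.3 and 51, a change of 0.38 (SE 0.09; limma, Benjamini-Hochberg adjusted p = 0.0399). ACL5, the thermospermine synthase that holds back premature vessel maturation, rose from 61.3, 72.1 and 64.7 FPKM to 96.8 and 89.4, a change of 0.49 (SE 0.09; limma, Benjamini-Hochberg adjusted p = 0.0234). The MC9 call was lost without any 1 of the 5 libraries (adjusted p of 0.074 to 0.143, limma with Benjamini-Hochberg) and under median-of-ratios scaling and quantile normalization (0.0518 and 0.0696), and that of ACL5 when Col-0 replicate 1, Col-0 replicate 3 or either GFP-GrxS5 library was left out (0.0639 to 0.109). The summed level of the 6 was 197 to 206 FPKM in wild-type roots and 263 and 256 in GFP-GrxS5, and the photosynthesis markers were higher in the same 2 libraries. In whole roots the FPKM of these 6 genes does not separate xylem from other cells, dying or not.

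The 3 members whose genotypes did not overlap are shown by the 250 bases before their annotated start in RefSeq (TAIR10.1), 5′ to 3′, because these windows can be searched for the element through which MYB46 and MYB83 act on wall genes. That element, the secondary wall MYB-responsive element, was searched on both strands as 8 strings of letters, which read ACC, then A or T, then A, then A or C, then C or T, and matches are in capitals.
XCP1 (plus strand, chr4:16810232-16810481): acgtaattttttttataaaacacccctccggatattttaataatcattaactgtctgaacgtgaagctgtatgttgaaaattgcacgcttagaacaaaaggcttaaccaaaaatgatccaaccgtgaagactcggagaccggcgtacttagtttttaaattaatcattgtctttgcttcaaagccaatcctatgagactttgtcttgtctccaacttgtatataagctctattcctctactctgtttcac
XCP2 (plus strand, chr1:7251861-7252110): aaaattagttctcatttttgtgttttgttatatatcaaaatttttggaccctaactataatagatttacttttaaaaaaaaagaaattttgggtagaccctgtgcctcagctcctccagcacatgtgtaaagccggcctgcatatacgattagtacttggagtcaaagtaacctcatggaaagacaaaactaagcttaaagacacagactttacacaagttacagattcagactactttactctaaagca
MYB83 (minus strand, chr3:2578277-2578526): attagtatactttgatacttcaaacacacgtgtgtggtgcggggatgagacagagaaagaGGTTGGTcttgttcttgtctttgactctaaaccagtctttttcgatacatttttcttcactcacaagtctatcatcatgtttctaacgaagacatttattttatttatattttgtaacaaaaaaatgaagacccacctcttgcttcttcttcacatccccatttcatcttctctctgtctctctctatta
The MYB83 window held 1 match, on the opposite strand and beginning 190 bases before the start, and the windows of XCP1 and XCP2 held none. Among the other 7 members CESA4, VND7 and LAC17 had 1 match each, beginning 81, 209 and 61 bases before the RefSeq start. VND6, MYB46, CESA7 and CESA8 had none. The RefSeq starts of VND6 (25050152) and VND7 (27074702) lie upstream of the starts given above (25050684 and 27076140), and so do their windows. The windows of CESA4, CESA8 and LAC17 overlap another annotated gene. In all 4 of 10 members had a match, beside 29.4% of the windows of all 27440 protein-coding nuclear genes. A match is a string of letters and does not show that a factor binds there.

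**Figure D4:**
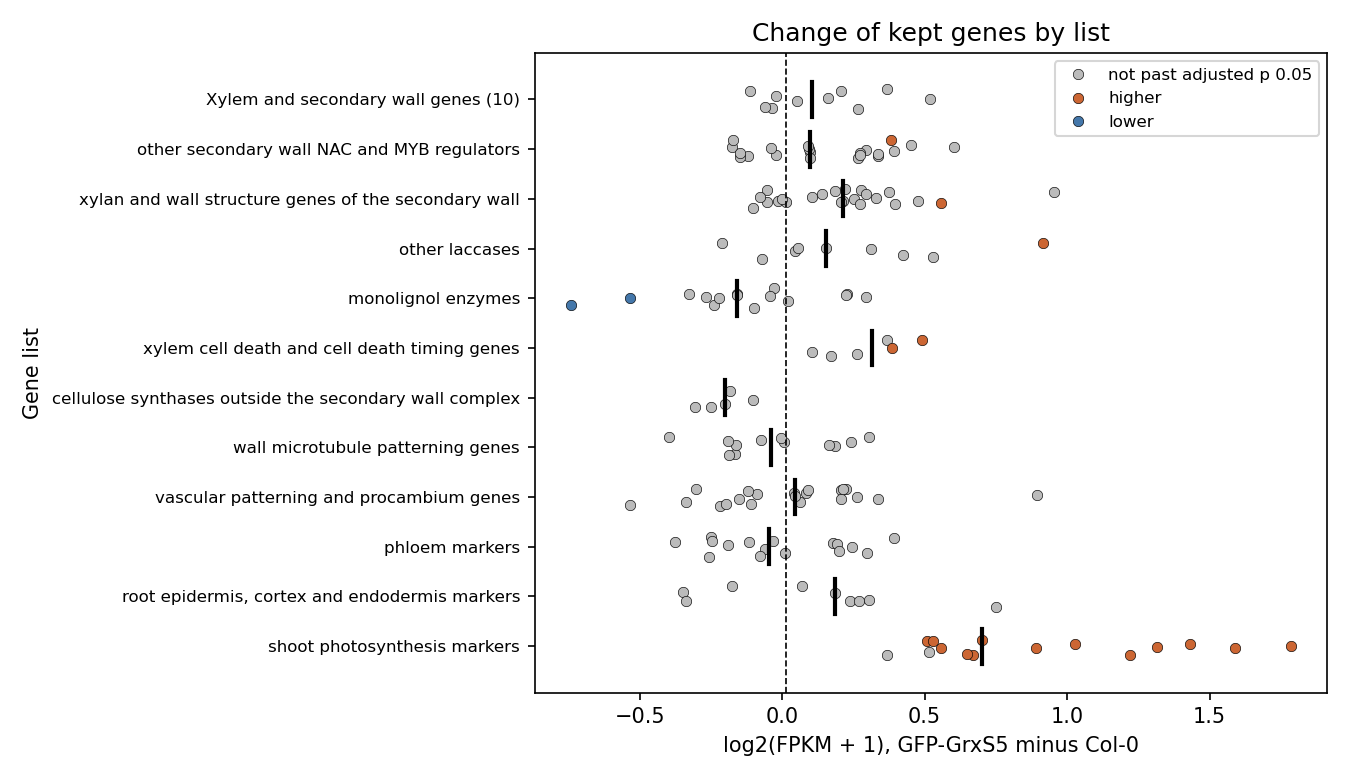
Log2 change on log2(FPKM + 1), GFP-GrxS5 minus Col-0, of each tested gene (point) by list, coloured where limma's adjusted p was under 0.05, with the list median as a black bar and the median of all tested genes (0.01) as a dashed line. The 10 xylem and secondary wall genes hold no coloured point, and the shoot photosynthesis markers hold 13.

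The tissue around the xylem gave no call. Of 21 genes of vascular patterning and procambium 0 passed by limma, with a median log2 change of 0.05. An unadjusted limma p under 0.05 was found for 4 of the 21, against 4795 of the 19693 tested genes. In 5 of them both GFP-GrxS5 libraries were above all Col-0 libraries and in 5 below, against 22.6% and 20.3% of all tested genes. DOF2.1, which promotes divisions of vascular cells, had 37.5 to 42.8 FPKM in wild-type roots and 32.7 and 23.4 in GFP-GrxS5 (limma, Benjamini-Hochberg adjusted p = 0.0723). It passed without GFP-GrxS5 replicate 1 (adjusted p = 0.0317, limma with Benjamini-Hochberg). Of 16 phloem markers 0 passed (3 had an unadjusted limma p under 0.05), with a median of -0.05. Their summed level was 318 to 348 FPKM in wild-type roots and 341 and 345 in GFP-GrxS5. In 4 of the 16 both GFP-GrxS5 libraries were above all Col-0 libraries and in 4 below. SUC2, the sucrose transporter of companion cells, had 22.6 to 26.2 FPKM in wild-type roots and 34 and 31.6 in GFP-GrxS5 (limma, Benjamini-Hochberg adjusted p = 0.0655). Of 12 genes that pattern the wall through microtubules 0 passed (3 had an unadjusted limma p under 0.05), with a median of -0.04. In 4 of the 12 both GFP-GrxS5 libraries were above all Col-0 libraries and in 5 below. CSI1, which links cellulose synthase to microtubules, had 37.6 to 41.1 FPKM in wild-type roots and 33.2 and 26.3 in GFP-GrxS5 (limma, Benjamini-Hochberg adjusted p = 0.0856).

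The files list 4 members at a locus shared with another gene, whose reads may have been divided between them. CESA4 shares its locus with AT5G44040 (18.2 to 22.5 FPKM), CESA7 with GCP2 (11 to 14.3 FPKM), LAC17 with AT5G60022 (0.204 to 0.792 FPKM) and CESA8 with MYB98, which was listed at 0 in every library. Among the other genes named, VND2, FLA11, LAC11 and CASP1 also share a locus. The FPKM of CESA4 and CESA7 is therefore less certain than that of CESA8 and LAC17, and no gene-level coordinates are given for these 4.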

How the data were processed

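Per the labels' protocols, RNA was extracted from roots and shoots with a column kit, and all 5 libraries are labelled as root. Sample titles gave the groups and replicate numbers. Whether replicates are separate plants is not stated, so the p-values cover the spread among these samples, which may be technical. The authors deposited 1 file per library with FPKM for each gene, per the file headers, on the build TAIR10, per the submitters' processing notes. Aligner, quantifier, strand handling and the treatment of shared reads are not given in any source used here.

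Kept were 19693 genes at 1 FPKM or more in 2 or more of the 5 libraries with status OK throughout, and 2 features with another status were left out. The genotypes were compared on log2(FPKM + 1), which understates changes of low genes, by limma 3.58.1 (R 4.3.3) with a variance trend, two-sided, Benjamini-Hochberg adjusted over all kept genes at 0.05. The fit was checked on simulated data with independent noise, no batch and planted changes larger than those of the members. That check does not bear on changes as small as theirs. Depth came from the FPKM that 1 fragment is worth in single-transcript genes of TAIR10.1, and estimated fragments use the longest RefSeq transcript. No count model was fitted.

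Members and lists were chosen with earlier results of these data known. Named were all members, up to 4 called genes a list (or else the smallest p), CESA1, CESA3, CESA6, LAC4, LAC11 and VND1 to VND5. NST1, NST2, SND1, EXPA7, CASP1, GL2, WER, RBCS2B and the genes that share a locus with a member were named after their values were seen. So was the pair of photosynthesis sums. List names are used where the files name a gene otherwise. Alternatives tried: pseudocounts 0.1 and 0.5, a filter of 5 FPKM or none, median-of-ratios and quantile scaling, no variance trend, the replicate number as a block, and each library left out.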

Additional observations from a re-analysis of the deposited data

How the results depend on the processing

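None of the 126 refitted values of the 10 members passed the threshold under any alternative (limma, Benjamini-Hochberg adjusted p of at least 0.0826), and the counts of members higher and lower were 0 throughout. The filter of 5 FPKM left 6 members in the fit. The sign of the change was not stable for the members nearest to 0: leaving out 1 library gave log2 changes of -0.19 to 0.12 for CESA4, -0.0025 to 0.15 for CESA7, -0.14 to 0.0898 for CESA8, -0.31 to 0.082 for VND6 and -0.27 to 0.15 for MYB46. Outside the members the same held for LAC11 (-0.12 to 0.0244), VND1 (-0.44 to 0.0848) and VND5 (-0.0593 to 0.22). XCP1, XCP2, LAC17, VND7 and MYB83 stayed above 0 in every refit. Of the 7 wall, lignin and cell death genes called outside the members, KNAT7, FLA11, PAL2, ACL5 and MC9 lost the call without a variance trend (adjusted p of 0.0674 to 0.105) and with the replicate block (0.0654 to 0.158), while LAC7 and PAL1 stayed under 0.05 in both. Without a filter on low values KNAT7 alone of the 7 stayed under 0.05 (0.0436), the other 6 reaching 0.0999 to 0.187. Of the photosynthesis genes named, LHCB1.3 and PSBO1 lost the call there too (0.0669 and 0.0643). Over all genes the counts of 932 higher and 462 lower became 202 and 109 without a filter on low values, 398 and 184 without a variance trend, and 313 to 594 and 192 to 242 without 1 library. With the replicate number as a block they were 418 and 176. Replicate 3 exists in Col-0 alone, so the block takes that library out of the comparison of genotypes. The log2 changes of the members under the block were therefore those found without Col-0 replicate 3. Replicate numbers 1 and 2 are shared by the genotypes. The deviations of same-numbered libraries from their group means had correlations across genes of -0.04 and -0.01. With 2 GFP-GrxS5 libraries those deviations mirror each other, so these values cannot settle whether the numbers pair the libraries. The causes were not tested. Depth limits VND6, VND7, MYB46 and MYB83 most, with 29 or fewer estimated fragments in every library.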
